A study of Mus musculus with 2 samples.

Results

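Ly6c2-high monocytes of the mouse colon were taken as the droplet barcodes that carried many transcripts of Ly6c2 and Lyz2 and few or none that mark mature macrophages, T cells, Retnla-expressing macrophages or cells responding to interferon. A barcode was kept when it had at least 200 genes and at most 20% mitochondrial unique molecular identifiers (UMIs, each standing for 1 captured RNA molecule). It was a member when its raw UMIs were at least 3 for Ly6c2 and at least 10 for Lyz2, under 10 for C1qa, C1qb and C1qc together, 0 for Cd3d, Cd3e and Cd3g, under 3 for Retnla, and under 20 for Ifit1, Ifit2, Ifit3, Rsad2, Cmpk2 and Isg15 together. This rule was met by 640 of 9153 barcodes, of which 8500 passed the gene and mitochondrial limits. The members were thus chosen by measured values, and the levels of the genes in the rule are given only as a description.

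The cells came from the lamina propria, the connective tissue under the colonic epithelium, of specific-pathogen-free male C57BL/6 mice aged 6 to 8 weeks, and were profiled by 10x Genomics single-cell RNA sequencing. The first library was labelled deficient for lncly6c (1700016P04Rik), a long noncoding RNA whose whole gene had been deleted in C57BL/6J zygotes with Cas9 cuts on either side of its exons. The second was labelled wild type. The labels name no treatment and do not say how many animals gave each library or whether the deficient animals descend from more than 1 founder. The series asks how lncly6c bears on the passage of Ly6C-high cells to Ly6C-low or negative macrophages, and its title names C/EBP factors and Nr4a1 in that passage.

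Ly6C-high monocytes are made in the bone marrow, leave it through the chemokine receptor Ccr2 and enter the blood and tissues, where they last a short time. In the healthy gut they keep arriving and mature step by step: they first gain major histocompatibility complex (MHC) class II while still carrying Ly6C, then lose Ly6C and take on the genes of resident macrophages. Ly6C is a small protein held at the cell surface by a lipid anchor, and Ly6c2 and its near copy Ly6c1, between which reads may be split, encode it.

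Each genotype was 1 library, so no test between genotypes was possible. Intervals in brackets are exact 95% intervals that cover counting error only. File names of the deposited matrices use the genotype words the other way round from the labels followed here; under the file names, each difference between libraries would change sides. The deleted gene gave no check on this: it had 0 UMIs in the 6133 barcodes of the deficient-labelled library and 0 in the 3020 of the wild-type-labelled library. Among members a count of 0 allows a share of up to 0.651% of 461 deficient-labelled and 1.68% of 179 wild-type-labelled cells with a UMI. The libraries shared 7 barcode sequences, and no sequence was a member in both.

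The members numbered 461 of 5890 kept barcodes in the deficient-labelled library, a share of 7.83% (7.15 to 8.54), and 179 of 2610 in the wild-type-labelled library, 6.86% (5.92 to 7.90). These intervals overlap. Members held 4002033 UMIs in the deficient-labelled and 1898541 in the wild-type-labelled library. The median member had 8139 UMIs (range 2121 to 55866) and 2300 genes in the deficient-labelled library, against 10654 UMIs (1831 to 32590) and 2640 genes in the wild-type-labelled library. Since a fixed number of UMIs is easier to reach in a deeper cell, the rule was also applied after thinning every kept cell to 2000 UMIs. The shares were then, over cells with at least 2000 UMIs, 8.99% in the deficient-labelled and 8.90% in the wild-type-labelled library. Ly6c2 was the step of the rule that removed most cells: it left 616 deficient-labelled and 247 wild-type-labelled barcodes, and Lyz2 then left 532 and 202, in the same order.

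The Ly6C-high marker genes outside the rule, Chil3, Plac8 and F10, fit the label, but markers of Ly6C-low monocytes were higher in members too. Summed over the 5 marker genes Ly6c2, Chil3, Plac8, F10 and Lyz2, members had 22617 CPM (UMIs of a gene per 1000000 UMIs) in the deficient-labelled and 24614 CPM in the wild-type-labelled library, against 3551 and 2581 CPM in all other cells of the same libraries. Lyz2 alone gave 16905 and 18584 CPM of the members' sums. Ly6c2 and Lyz2 are in the rule, so these sums were set high in advance and only describe. Of the 5 genes Chil3, Plac8 and F10 were not in the rule. Chil3, a chitinase-like secreted protein of myeloid cells, was at 668 CPM in deficient-labelled and 577 CPM in wild-type-labelled members, against 46.1 and 42.7 CPM in all other cells. Plac8, a small cysteine-rich protein abundant in Ly6C-high monocytes, was at 3195 and 3397 CPM in members, against 497 and 494 CPM in all other cells. F10, which encodes coagulation factor X, was at 563 and 536 CPM in members, against 61.8 and 67.5 CPM. The 5 Ly6C-low monocyte markers summed to 232 CPM in deficient-labelled and 221 CPM in wild-type-labelled members. In all other cells they summed to 80.5 and 130 CPM. A UMI of these markers was found in 66.4% of deficient-labelled and 70.9% of wild-type-labelled members. Whether Ly6C-low monocytes were among the members was not tested.

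The surroundings of the start sites of Ly6c2, used in the rule, and of Chil3, which marks the cells without having been used, are shown because both hold the letters AGGAAGT, a core recognised by PU.1, the master factor of myeloid cells. The windows run from 250 bases before to 50 after the RefSeq start on GRCm38.p6, 5′ to 3′ on the gene's strand, with the match in capitals. That of Ly6c2 is chr15:75111922-75112221 on the minus strand, with matches at bases 144 to 150 and 278 to 284 of the window, and that of Chil3 is chr3:106167515-106167814 on the minus strand, with the reverse complement ACTTCCT at bases 191 to 197.
Ly6c2: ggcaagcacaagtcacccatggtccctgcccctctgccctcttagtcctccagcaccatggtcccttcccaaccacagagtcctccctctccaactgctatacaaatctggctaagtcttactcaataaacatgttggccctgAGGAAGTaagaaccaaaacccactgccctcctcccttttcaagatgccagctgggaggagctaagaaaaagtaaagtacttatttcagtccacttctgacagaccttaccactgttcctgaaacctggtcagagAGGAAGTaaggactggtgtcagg
Chil3: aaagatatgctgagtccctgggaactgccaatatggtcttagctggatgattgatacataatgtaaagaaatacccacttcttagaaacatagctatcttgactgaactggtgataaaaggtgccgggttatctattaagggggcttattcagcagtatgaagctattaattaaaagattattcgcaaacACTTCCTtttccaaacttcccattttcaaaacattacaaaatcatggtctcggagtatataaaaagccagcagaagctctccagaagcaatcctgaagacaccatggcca
On either strand the 7 letters occurred in 9.35% of 32851 RefSeq promoter windows of this length, and in 7 of the 17 Ly6C-high monocyte genes that have one. A match is a description of the letters and not a binding site. RefSeq gives Ly6c2 a further start, whose window is not shown.

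Against the C1q-high cells of the same library, which had at least 10 C1q UMIs, met the rest of the rule apart from Ly6c2 and are macrophages by that marker (454 deficient-labelled and 123 wild-type-labelled cells), members kept the genes of the circulating cell and had less of the resident programme. C1q UMIs set these groups apart by construction, so the values describe and do not test. All 19 Ly6C-high monocyte genes outside the rule were over 1.5-fold higher in members in both libraries, with a median log2 ratio of 1.96 in the deficient-labelled and 2.55 in the wild-type-labelled library. Over all genes, 11.6% of 6541 in the deficient-labelled and 20.4% of 3901 in the wild-type-labelled library were that much higher, 16.4% and 14.6% that much lower, and the median log2 ratios were -0.01 and 0.10.

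Hp, the hemoglobin-binding haptoglobin, was at 246 CPM in deficient-labelled and 486 CPM in wild-type-labelled members, against 6.15 and 7.04 CPM in C1q-high cells. Cd177, a surface protein best known from neutrophils, gave the largest ratio when genes were ranked by the smaller of their ratios in the libraries, at 86.5 and 147 CPM in members against 2.05 and 2.56 CPM, or log2 5.4 (4.54 to 6.41) and 5.84 (4.47 to 7.73). Next to these stood Plcb1, a phospholipase C, at log2 4.67 and 4.17, Mgst1, a membrane-bound glutathione transferase, at 4.27 and 4.13, and the interferon-induced membrane protein gene Ifitm6 at 3.31 and 3.72. Ace, the angiotensin-converting enzyme, was at 56.0 CPM in deficient-labelled and 59.0 CPM in wild-type-labelled members, against 2.98 and 0.64 CPM, and its wild-type-labelled ratio rests on so few UMIs that its interval runs from 4.02 to 11.84.

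Ccr2, the receptor for monocyte recruitment, separated the cells far less, at 361 and 656 CPM in members against 205 and 377 CPM in C1q-high cells (log2 0.82 and 0.80). Csf1r, the receptor for macrophage colony-stimulating factor, was close in both, with log2 ratios of -0.23 and -0.28. Cebpb, a transcription factor of the C/EBP family, was higher in members, at log2 1.19 (1.14 to 1.24) and 1.46 (1.37 to 1.56).

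Of the mature macrophage genes outside the rule, 22 of 26 in the deficient-labelled and 17 of 20 in the wild-type-labelled library were over 1.5-fold lower in members, with medians of -2.78 and -2.77. Apoe, which carries lipids, was at 1534 CPM in deficient-labelled and 1359 CPM in wild-type-labelled members, against 8889 and 7384 CPM in C1q-high cells. The mannose receptor gene Mrc1 was at 30.7 and 17.4 CPM, against 264 and 383 CPM. Ms4a7, a membrane protein of tissue macrophages, was at 32.5 and 11.1 CPM, against 350 and 289 CPM. The MHC class II list, whose proteins show peptides to helper T cells, was lower throughout, in 10 of 10 and 8 of 8 genes (medians -1.89 and -3.33). Interferon-stimulated genes were higher in members, in 18 of 25 and 14 of 18 genes.

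**Figure D1:**
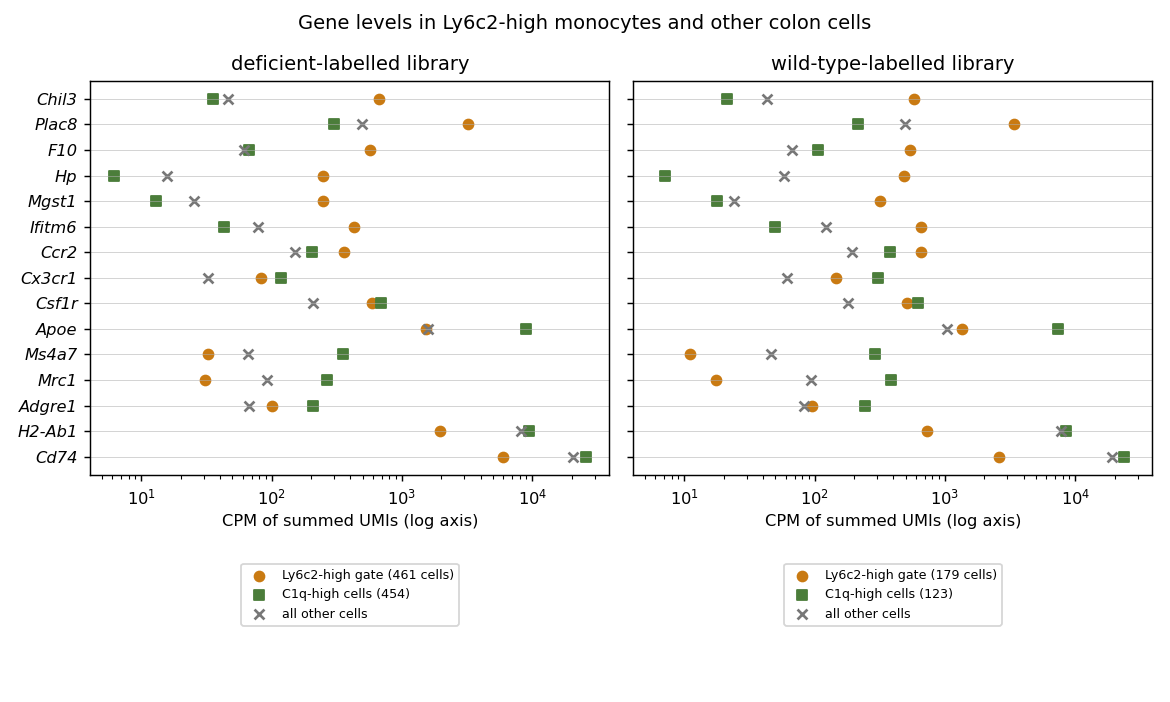
Summed level of 15 genes in CPM (log axis) in Ly6c2-high members, C1q-high cells and all other kept cells, with the deficient-labelled library on the left and the wild-type-labelled library on the right. Chil3, Plac8, F10, Hp, Mgst1 and Ifitm6 lie to the right in members, and Apoe, Ms4a7, Mrc1, Adgre1, H2-Ab1 and Cd74 lie to the right in C1q-high cells, in both panels.

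Around the Ly6c2 threshold there was no gap. Members with exactly 3 Ly6c2 UMIs were 63 in the deficient-labelled and 19 in the wild-type-labelled library, and they had 2797 and 2274 CPM of Plac8 and 2672 and 752 CPM of H2-Ab1. Cells with 2 Ly6c2 UMIs that met the rest of the rule were 92 and 24, with 2322 and 2320 CPM of Plac8 and 3049 and 2966 CPM of H2-Ab1.

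Members were uneven in the genes that mark them. Per 10000 UMIs of a cell, Plac8 had a median of 31.1 in deficient-labelled members, with the 10th and 90th percentiles at 6.96 and 63.9, and a median of 32.2 (11.4 to 61.6) in wild-type-labelled members. Chil3 was concentrated in fewer cells: its median was 1.30 in deficient-labelled and 0.72 in wild-type-labelled members, while the 90th percentiles were 23.8 and 19.0. Ly6c2 itself ran to 125 per 10000 in the highest deficient-labelled and 77.3 in the highest wild-type-labelled member, with medians of 9.98 and 12.6. Cxcl2, a chemokine that draws neutrophils, spanned from 3.33 at the 10th percentile to 182 at the 90th in deficient-labelled members, and from 2.80 to 246 in wild-type-labelled members.

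The genes with the largest variance over mean were found after thinning each member to 2000 UMIs (461 deficient-labelled and 178 wild-type-labelled cells). Of the 15 most variable in each library, 8 were shared, which is 53.3% of each list. They fell into MHC class II and chemokines. Cd74, the class II invariant chain, had a ratio of 19.8 in the deficient-labelled and 22.6 in the wild-type-labelled library, and H2-Aa, H2-Eb1 and H2-Ab1, chains of class II molecules, lay between 8.89 and 12.2. Cxcl2 was at 16.5 and 19.1, and Cxcl1, another neutrophil-drawing chemokine, at 9.38 and 10.4. Cxcl9, a chemokine induced by interferon gamma, was at 12.3 and 13.5. It had a UMI in only 10 of 461 deficient-labelled and 5 of 178 wild-type-labelled thinned members. The iron storage gene Fth1 completed the shared list. Ly6c2 was at 3.20 and 2.65, but the rule's minimum of 3 UMIs limits its spread in advance, so it is not compared with the others.

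Some genes were variable in 1 library through a handful of cells. S100a8 and S100a9, which encode the calprotectin of neutrophils, had ratios of 6.29 and 12.6 in the deficient-labelled library and of 169 and 170 in the wild-type-labelled library. The chemokine gene Ccl5 was at 11.6 in the deficient-labelled and 1.25 in the wild-type-labelled library, and 1 deficient-labelled cell held 187 of its 495 UMIs.

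**Figure D2:**
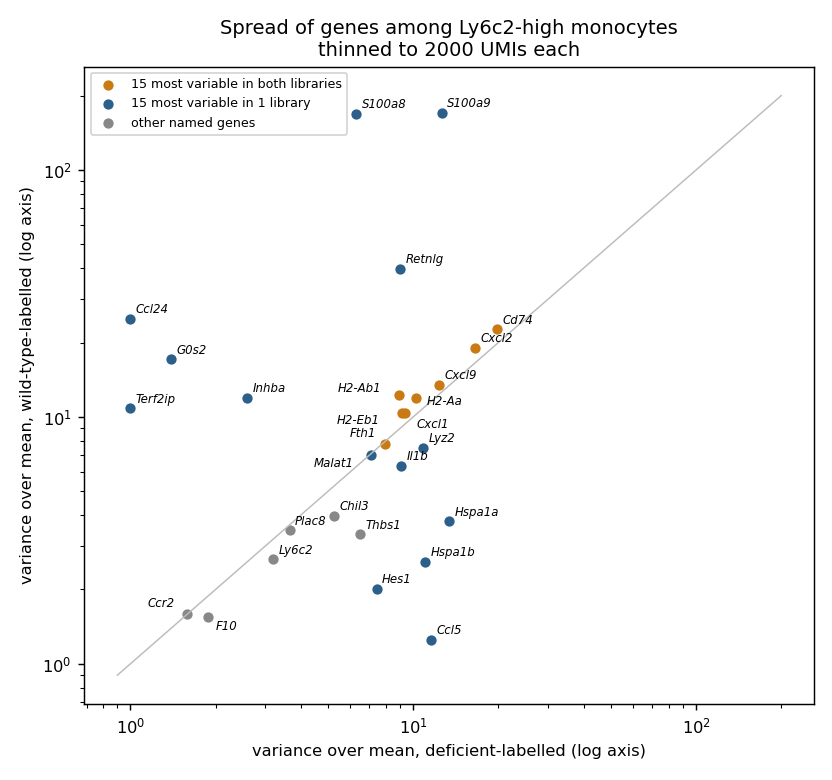
Variance over mean of each named gene among Ly6c2-high monocytes thinned to 2000 UMIs, with the deficient-labelled library on the horizontal and the wild-type-labelled library on the vertical axis (both log axes). The line marks equal values; class II genes and Cxcl2 lie high near the line, and S100a8 and S100a9 lie far above it, at 169 and 170 in the wild-type-labelled library.

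Between the libraries the members were alike in most genes. Of 5091 genes whose members' UMIs came to 100 or more in total, 6.78% (345 genes) were over 1.5-fold higher in deficient-labelled members and 5.4% (275 genes) over 1.5-fold lower, and the median log2 ratio, deficient-labelled over wild-type-labelled, was 0.01. Against this background the list of Ly6C-high monocyte genes leaned down: 6 of 19 were over 1.5-fold lower, 1 was higher, and the median was -0.17. The lower genes included Hp (-0.98), F13a1 (-0.94), Ccr2 (-0.86), Fn1 (-0.79) and Ifitm6 (-0.60).

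Ccr2 was at 361 CPM in deficient-labelled and 656 CPM in wild-type-labelled members, a log2 ratio of -0.86 (-0.97 to -0.75), and the median cell had 2.62 and 5.82 Ccr2 UMIs per 10000. C1q-high cells also had less Ccr2 in the deficient-labelled library, at 205 and 377 CPM. In the T cell gate defined below it was at 116 and 84.5 CPM. F13a1, which encodes the clot-stabilising factor XIII A chain, was at 215 and 413 CPM, and Fn1, the matrix protein fibronectin, at 584 and 1013 CPM. As a measure of RNA free in the droplets, a T cell gate was formed (183 deficient-labelled and 75 wild-type-labelled cells). Its barcodes had at least 3 Cd3d, Cd3e and Cd3g UMIs, under 3 of Lyz2 and 0 of the B cell genes Cd79a and Ms4a1. The gate measures free RNA only for genes that T cells do not make themselves. T cells may make Ccr2, Klf4 and Runx3, among others, and this was not tested. The gate held 1.96 and 0 CPM of F13a1. The exception on the list was Thbs1, which encodes the matrix protein thrombospondin 1, at 2197 CPM in deficient-labelled and 1115 CPM in wild-type-labelled members (0.98, 0.91 to 1.05), against 13.7 and 26.2 CPM in the T cell gate. Thbs1 was also higher in deficient-labelled C1q-high cells, at 683 and 322 CPM, and in the neutrophil gate defined below, at 3310 and 1998 CPM. It was not higher in all other kept cells together, at 338 and 398 CPM. The neutrophil gate made up 1.56% of kept cells in the deficient-labelled and 7.82% in the wild-type-labelled library. The markers Chil3 (0.21), F10 (0.07) and Plac8 (-0.09) stayed within 1.5-fold, as did Ly6c2 (-0.24) and Lyz2 (-0.14), which the rule used.

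Of the genes named in the series title, Nr4a1, a nuclear receptor needed by Ly6C-low monocytes, was at 199 CPM in deficient-labelled and 327 CPM in wild-type-labelled members (-0.72, -0.87 to -0.56). It was also lower in other cells of the deficient-labelled library, at 275 against 544 CPM in the T cell gate and 258 against 502 CPM in the neutrophil gate (at least 50 S100a8 and S100a9 UMIs). Its ratio in members was within 1.5-fold in 2 of 17 alternative treatments of the data, at up to -0.49. Cebpb was at 2240 and 1969 CPM (0.19, 0.13 to 0.24), and Cebpa, another C/EBP gene, at 55.5 and 64.3 CPM (-0.21, -0.54 to 0.12), both within 1.5-fold.

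Of 28 myeloid transcription factor genes, 5 were over 1.5-fold lower, 2 higher and 21 within that range (median 0.03). With Nr4a1 and its relative Nr4a2, the lower genes were the Krüppel-like factors Klf13 (-0.79), Klf4 (-0.78) and Klf2 (-0.68). Klf4, which monocyte development requires, was at 274 CPM in deficient-labelled and 469 CPM in wild-type-labelled members, and at 286 and 598 CPM in the T cell gate. Runx3, a factor that mediates responses to TGF-beta, was at 211 and 86.9 CPM in members (1.28, 1.03 to 1.53) and at 235 and 169 CPM in the T cell gate. Spi1, which encodes PU.1 (0.04), and Irf8 (0.02) differed little.

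Immediate-early genes respond within minutes to stimuli and to tissue dissociation, and were listed together with heat shock genes. Of these 22 genes 4 were over 1.5-fold lower, among them the immediate-early genes Fosb, Fos and Egr1 (-0.86), and 1 was higher, the heat shock gene Hsph1 (0.89). Fosb was at 188 CPM in deficient-labelled and 430 CPM in wild-type-labelled members (-1.20), and Fos at 365 and 778 CPM (-1.09). The same genes differed in the T cell gate, with Fosb at 461 and 860 CPM and Fos at 302 and 733 CPM. Hsph1 was at 180 and 88.6 CPM there and at 158 and 61.4 CPM in C1q-high cells. The role of dissociation in these differences was not tested.

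Signals to other cells went in both directions. Of 18 inflammatory cytokine and chemokine genes, 7 were over 1.5-fold lower, 3 higher and 8 within that range, with a median of -0.35. The cytokine gene Il6 was at 98.7 CPM in deficient-labelled and 268 CPM in wild-type-labelled members (-1.44, -1.63 to -1.25), Cxcl1 at 518 and 1187 CPM (-1.20, -1.28 to -1.11), and Ccl2, whose product is the Ccr2 ligand, at 121 and 246 CPM (-1.03, -1.21 to -0.84). Il12b (-0.95), Il1a (-0.64), Tnf (-0.63) and Ccl4 (-0.62) were lower too. Higher were Ccl5 (2.12), Cxcl3 (1.10) and Cxcl16 (0.89). T cells held much Ccl5, at 2382 and 1665 CPM, and the single deficient-labelled member named above held 187 of its 495 UMIs. Il1b, the inflammasome-processed cytokine, was at 2558 and 1737 CPM (0.56, 0.50 to 0.62), just short of 1.5-fold, which it passed in 5 of the 17 alternatives. The T cell gate held 236 and 26.2 CPM of Il1b. Cxcl3 was at -0.26 when the rule was applied to thinned cells.

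Receptors for growth factors and cytokines showed the same mix. Of 25 trafficking and growth factor receptor genes, 3 were higher and 4 lower. The higher ones included Csf2rb, the common beta chain for GM-CSF, at 625 CPM in deficient-labelled and 334 CPM in wild-type-labelled members (0.90), and Ifngr2, a chain of the interferon gamma receptor (0.86). In the T cell gate Csf2rb was at 99.7 and 26.2 CPM and Ifngr2 at 77.2 and 62.4 CPM, and in C1q-high cells Csf2rb was at 633 and 390 CPM. The lower ones included Ccr2, the fractalkine receptor gene Cx3cr1 (82.7 and 146 CPM, -0.82) and Tgfbr2 (-0.60). Cx3cr1 was also lower in deficient-labelled C1q-high cells, at 117 and 306 CPM, and in all other kept cells together, at 32.6 and 61.0 CPM. Of 25 interferon-stimulated genes outside the rule 3 were over 1.5-fold higher and 1 lower, against 6.78% and 5.4% of all measured genes. The higher ones were guanylate-binding proteins, Gbp2 (182 and 59.0 CPM, 1.63, 1.34 to 1.93), Gbp5 (1.13) and Gbp3 (0.86). Gbp2 was also higher in the deficient-labelled T cell gate (54.8 and 26.2 CPM), neutrophil gate (118 and 70.2 CPM) and C1q-high cells (61.9 and 39.0 CPM). The rule's interferon limit had removed 7 deficient-labelled and 16 wild-type-labelled cells, so this list describes only the cells left below that limit.

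Among genes for matrix, clotting and repair, Areg, the growth factor amphiregulin, was at 31.7 CPM in deficient-labelled and 85.9 CPM in wild-type-labelled members (-1.44), and Cd274, which encodes the inhibitory ligand PD-L1, at 263 and 153 CPM (0.78). Cd274 was at 83.1 and 30.2 CPM in the T cell gate and at 509 and 570 CPM in the neutrophil gate. The metalloproteinase genes Mmp12 (1.95) and Mmp14 (1.04) were higher, though at 0.43 and 0.29 once members were thinned to 2000 UMIs, and the clotting factor gene F5 (-0.96) was lower. Hcar2, a receptor for butyrate and niacin, was at 38.5 and 140 CPM in members (-1.86, -2.16 to -1.57), at 0 in both T cell gates, and at 1194 and 1934 CPM in the neutrophil gates. Its ratio without neutrophil-marked members was -1.56. Metabolic lists hardly moved: 0 of 28 respiratory chain genes (median -0.10) and 1 of 16 glycolysis genes (median 0.06) passed 1.5-fold, that gene being the lactate exporter Slc16a3 (0.92). In the lysosome and phagocytosis list 2 of 26 genes passed it, both upward: Lgmn, the protease legumain (402 and 160 CPM, 1.33), and Cd63 (0.69; 0.37 in thinned members). The T cell gate held 56.7 and 18.1 CPM of Lgmn and 77.2 and 26.2 CPM of Cd63. C1q-high cells had 767 and 772 CPM of Lgmn. The role of free RNA in these differences was not tested.

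The mature macrophage list, little expressed in these cells, had 15 measured genes outside the rule, of which 4 were over 1.5-fold higher, 1 lower and 10 within that range (median 0.21). The higher ones were Ms4a7 (1.55), Hpgds, a prostaglandin D synthase (0.91), Mrc1 (0.82) and Acp5, the tartrate-resistant phosphatase (0.78), and the lower one was Cx3cr1. Hpgds was at 0.43 and Mrc1 at 0.20 among members under 50 class II UMIs per 10000, and Mrc1 was at -0.37 in thinned members. Csf1r (0.21), Apoe (0.17) and Adgre1, which encodes F4/80 (0.08), were within 1.5-fold. Of 18 microbial sensing genes, Clec4n, which encodes the fungal receptor dectin-2, was higher (73.7 and 35.8 CPM, 1.04) with the scavenger receptor gene Cd36 (0.74), and Trem1, which amplifies inflammatory signals, was lower (115 and 201 CPM, -0.80). Of 15 MHC class I genes, 3 were higher and 0 lower (median 0.20). These were H2-Q7 (138 and 64.3 CPM, 1.11), Nlrc5, the coactivator of class I genes (0.87), and H2-Q6 (0.76). H2-Q7 was also higher in deficient-labelled C1q-high cells (255 and 121 CPM), the neutrophil gate (104 and 58.3 CPM) and the T cell gate (719 and 479 CPM). H2-Q6 and H2-Q7 are close in sequence, so that reads may be split between them. In the Ly6 family Ly6i was higher (0.68; 0.22 to 0.95 over the 17 alternatives), Ly6a was at 0.17 with alternatives on either side of 0 (-0.58 to 1.67), and Ly6e (-0.15) was within 1.5-fold.

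**Figure D3:**
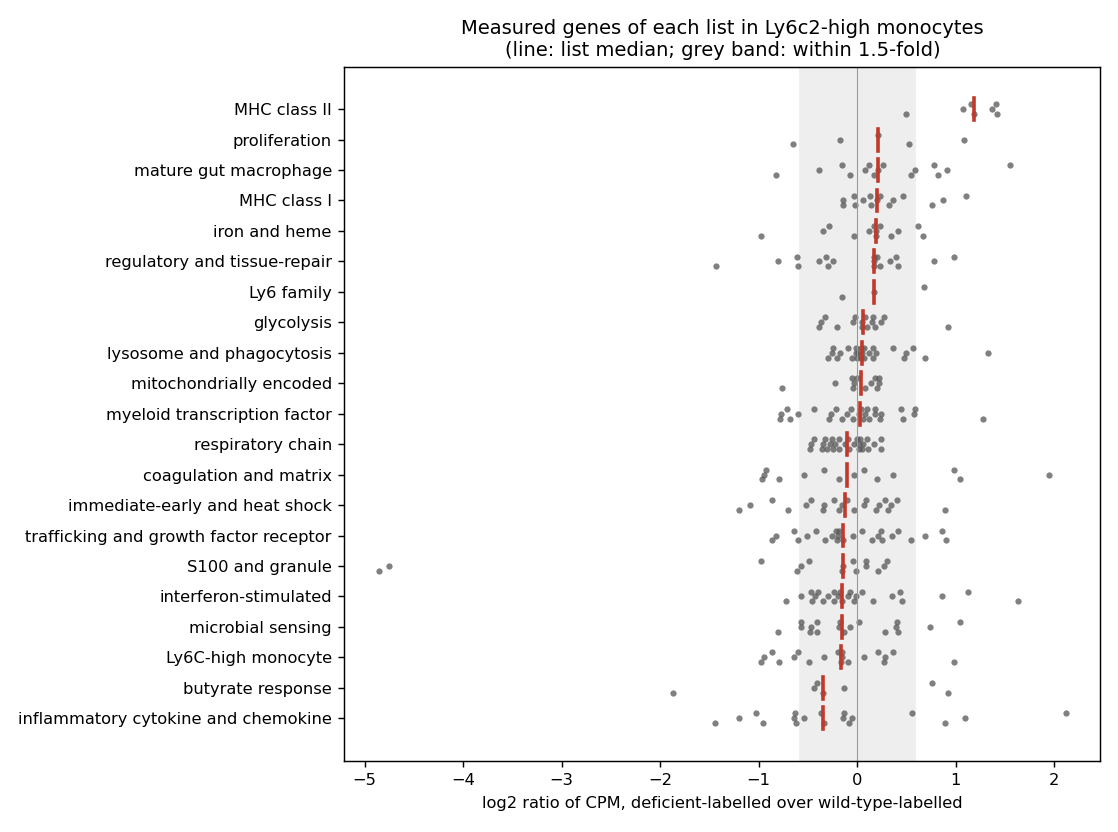
Log2 of deficient-labelled CPM over wild-type-labelled CPM of each measured gene outside the rule (points) in Ly6c2-high monocytes, by list, with red lines at list medians and a grey band for ratios within 1.5-fold. The MHC class II list stands at the top with a median of 1.19, the inflammatory and butyrate response lists at the bottom with medians of -0.35 (0.80 for butyrate response once members are thinned to 2000 UMIs), and S100a8 and S100a9 lie far to the left.

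Class II genes gave the list furthest from the background. Of the 11 listed, 7 had enough UMIs, 6 were over 1.5-fold higher in deficient-labelled members, 0 were lower, and the median log2 ratio was 1.19. H2-Ab1 was at 1959 CPM in deficient-labelled and 731 CPM in wild-type-labelled members (1.42, 1.34 to 1.51), H2-Aa at 2087 and 809 CPM (1.37), and H2-Eb1 at 1453 and 546 CPM (1.41). Cd74 was at 5942 and 2603 CPM (1.19, 1.15 to 1.24). Ciita, the coactivator that switches the class II genes on, was at 28.7 and 13.7 CPM (1.07, 0.45 to 1.74), and H2-DMb1, a subunit of the peptide loader, at 192 and 86.4 CPM (1.15).

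The same genes differed in T cells, which in mice make little or no class II. In the T cell gate the class II list summed to 7343 CPM in the deficient-labelled and 2077 CPM in the wild-type-labelled library, and in the neutrophil gate to 12584 and 7099 CPM, against 11998 and 5013 CPM in members. C1q-high cells had 55441 and 50292 CPM. In the median member H2-Aa, H2-Ab1 and H2-Eb1 together were 11.6 per 10000 UMIs in the deficient-labelled and 2.02 in the wild-type-labelled library, and in the median T cell 10.2 and 2.55. The median member of each library thus lay close to the level of that library's T cells, and the role of free RNA in the difference between libraries was not tested.

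Above that level stood a tail. Members with at least 50 class II UMIs per 10000, a limit set after the values were seen, were 100 of 461 (21.7%, 18.0 to 25.7) in the deficient-labelled and 14 of 179 (7.82%, 4.34 to 12.8) in the wild-type-labelled library. Of T cells, 7.10% and 2.67% reached it, of neutrophils 4.35% and 1.96%, and of C1q-high cells 94.9% and 99.2%. The median depth was 4811 and 6036 UMIs in T cells. The limit did not fall in a gap of the deficient-labelled values: 14 deficient-labelled and 2 wild-type-labelled members lay between 40 and 60. The 90th percentile of T cells was 30.8 per 10000 in the deficient-labelled and 8.86 in the wild-type-labelled library. The same limit thus lay nearer to the T cell level in the deficient-labelled library. In the tail, which is chosen by these same UMIs, H2-Ab1 was at 5691 CPM in deficient-labelled and 5766 CPM in wild-type-labelled cells. It was at 5273 and 3962 CPM without the cells that carry dendritic cell markers, and at 484 and 135 CPM in members under 50.

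**Figure D4:**
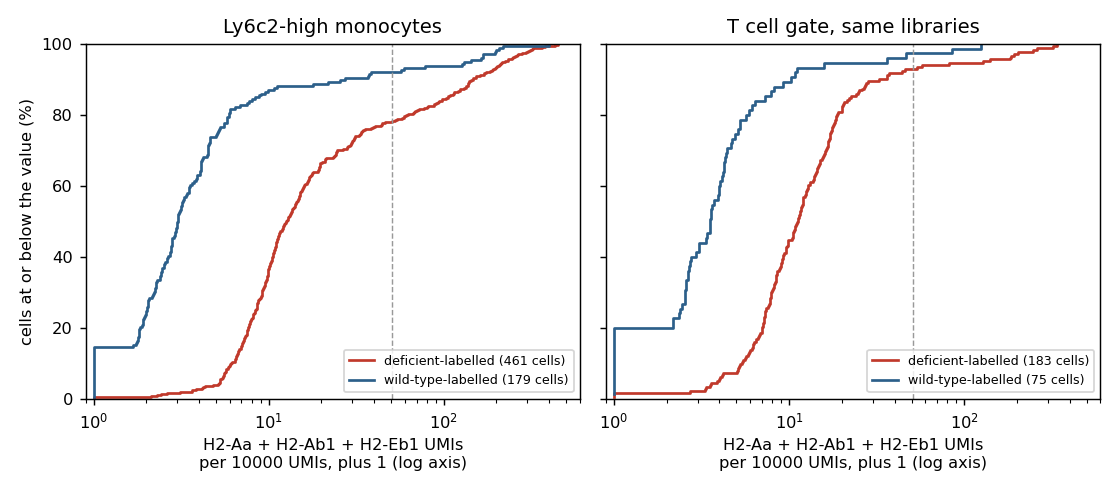
Cumulative share of cells (%) by H2-Aa, H2-Ab1 and H2-Eb1 UMIs per 10000 UMIs of the cell, plus 1 (log axis), in Ly6c2-high monocytes (left) and the T cell gate (right); the dashed line marks 50 per 10000. The deficient-labelled curves lie to the right in both panels, with medians of 11.6 against 2.02 in members and 10.2 against 2.55 in T cells.

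The windows around the starts of H2-Aa (chr17:34287774-34288073, minus strand) and H2-Eb1 (chr17:34305617-34305916, plus strand) are shown because these genes were higher together and both hold CTGATTGG, the inverted CCAAT letters known as the Y box of class II promoters. Capitals mark the match, at bases 200 to 207 in H2-Aa and 189 to 196 in H2-Eb1, in RefSeq windows of the same build and extent as above.
H2-Aa: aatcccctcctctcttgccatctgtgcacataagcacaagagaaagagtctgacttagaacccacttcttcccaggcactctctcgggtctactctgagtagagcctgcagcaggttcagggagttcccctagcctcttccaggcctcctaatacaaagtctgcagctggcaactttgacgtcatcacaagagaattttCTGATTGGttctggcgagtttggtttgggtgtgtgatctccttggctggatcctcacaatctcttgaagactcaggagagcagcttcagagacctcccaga
H2-Eb1: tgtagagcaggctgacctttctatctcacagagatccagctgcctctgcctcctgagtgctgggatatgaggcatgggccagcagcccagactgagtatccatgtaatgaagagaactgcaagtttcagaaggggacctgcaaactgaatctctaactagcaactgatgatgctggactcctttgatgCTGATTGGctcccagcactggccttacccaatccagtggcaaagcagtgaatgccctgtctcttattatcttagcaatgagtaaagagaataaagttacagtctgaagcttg
On either strand these 8 letters occurred in 4.10% of the 32851 windows and in 4 of the 8 class II list genes that have one, the others being H2-Oa and H2-Eb2.

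Within each library, members with at least 50 class II UMIs per 10000 had less of the genes of the circulating monocyte than members under 50. Of 19 Ly6C-high monocyte genes outside the rule, 14 in the deficient-labelled and 15 in the wild-type-labelled library were over 1.5-fold lower, with medians of -1.27 and -1.05. Over all genes, 11% of 4167 and 23.1% of 2548 were that much lower, and 5.3% and 8.56% that much higher. Chil3 was at 198 CPM in the class II-rich and 854 CPM in the other deficient-labelled members, and at 89.5 and 634 CPM in the wild-type-labelled ones. Hp was at 45.9 and 326 CPM in deficient-labelled and at 79.6 and 534 CPM in wild-type-labelled members, in the same order.

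Plac8 differed less. It was at 1954 CPM in the class II-rich and 3686 CPM in the other deficient-labelled members, and at 2463 and 3508 CPM in the wild-type-labelled ones (-0.92 and -0.51). Ccr2 was not lower, at 424 against 336 CPM and at 711 against 650 CPM. Cebpb was at 1436 against 2558 CPM and at 1119 against 2070 CPM (-0.83 and -0.89). The proliferation marker Mki67 was higher in the class II-rich members (1.04 and 1.60), and Il1b (0.08 and 0.12) stayed within 1.5-fold. Ciita was at 2.59 and 4.25, the wild-type-labelled value resting on under 100 UMIs.

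Mature macrophage genes did not do the same in both libraries. Of 13 genes with at least 100 UMIs in the deficient-labelled library, 5 were over 1.5-fold higher in the class II-rich members and 0 lower (median 0.14), and of 7 in the wild-type-labelled library 1 was higher and 3 were lower (median -0.26). Aif1, a calcium-binding protein of macrophages, was higher in both (1.18 and 1.70). Csf1r was at -0.58 and -0.96, Adgre1 at -0.46 and -0.61, and Apoe at 0.25 and 0.50. Mrc1 (2.67) and the apoptotic-cell receptor gene Axl (1.67) were higher in the deficient-labelled library and had under 100 UMIs in the wild-type-labelled one.

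Dendritic cell markers moved with class II. Ccr7, which guides migrating dendritic cells, was at log2 2.56 and 3.46, Itgax, which encodes the integrin CD11c, at 1.78 and 3.27 (under 100 UMIs in the wild-type-labelled library), and Cd209a, a lectin of monocyte-derived and conventional dendritic cells, at 2.92 and 3.82. Members with at least 3 UMIs of Cd209a, Flt3, Xcr1, Clec9a and Fscn1 together made up 24 of the 100 class II-rich deficient-labelled and 5 of the 14 wild-type-labelled cells. They were 14 of 361 and 8 of 165 of the others.

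Without these cells, 76 deficient-labelled and 9 wild-type-labelled class II-rich members remained, and 12 and 13 of the 19 monocyte genes were over 1.5-fold lower (medians -0.94 and -0.79), against 7.11% of 3867 and 22.3% of 2435 genes overall (higher 4.5% and 11.8%). In the deficient-labelled library 1 of the 19 was higher, Ccr2, at 562 against 336 CPM (0.74, 0.57 to 0.92). Its wild-type-labelled ratio was 0.17. Chil3 (-1.77 and -3.41) and Hp (-2.65 and -2.57) were lower as before, and Plac8 (-0.48 and -0.04) and Cebpb (-0.39 and -0.30) were within 1.5-fold. Of the mature macrophage genes, 5 of 11 were then higher and 0 lower in the deficient-labelled library (median 0.51), and 2 of 6 were higher and 2 lower in the wild-type-labelled library (median 0.01). Apoe was at 0.94 and 0.94, Aif1 at 1.67 and 1.91, and Csf1r at -0.14 and -0.76. Ccr7 was at 1.5 and 2.60, the wild-type-labelled value resting on under 100 UMIs. The wild-type-labelled values rest on 9 cells.

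**Figure D5:**
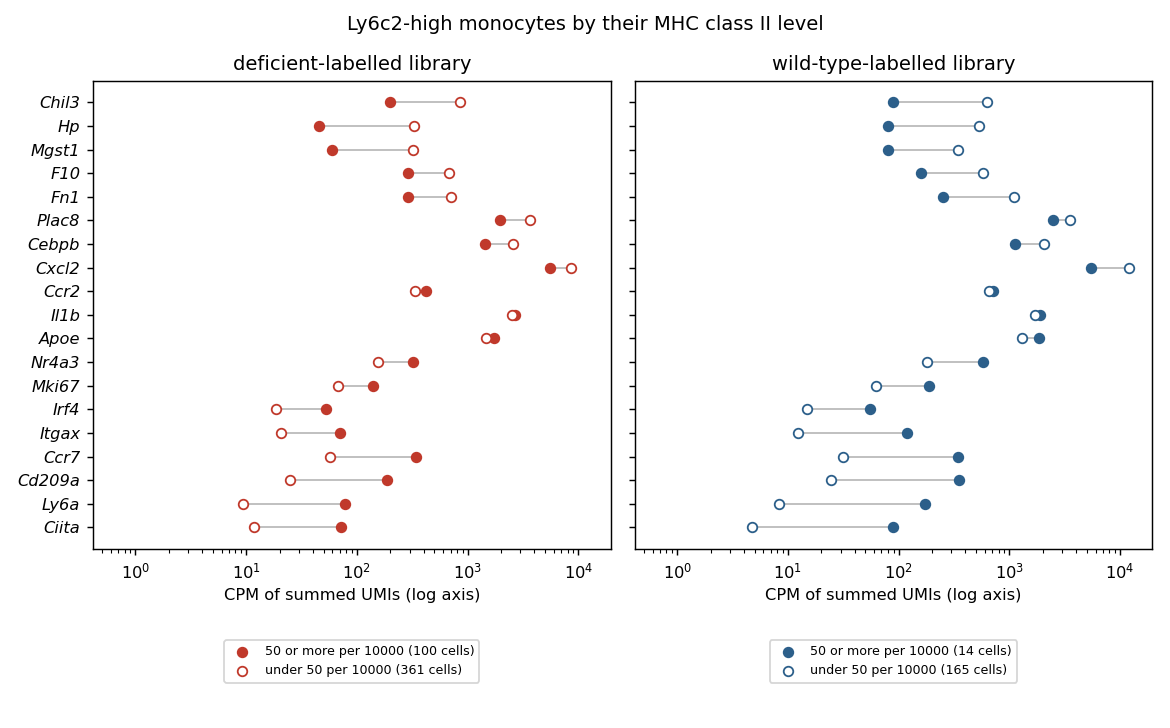
Level in CPM (log axis) of 19 genes in Ly6c2-high monocytes with at least 50 class II UMIs per 10000 (filled) and with under 50 (open), for the deficient-labelled library on the left (100 and 361 cells) and the wild-type-labelled library on the right (14 and 165 cells). Chil3, Hp, Mgst1 and F10 lie lower and Ccr7, Cd209a and Ciita higher in the filled points of both panels.

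Transcripts of other cells were present among the members, unequally between the libraries. The 6 neutrophil markers summed to 178 CPM in deficient-labelled and 2167 CPM in wild-type-labelled members. In the wild-type-labelled library 7 cells with at least 10 S100a8 and S100a9 UMIs held 3581 of the 3624, and in the deficient-labelled library 5 cells held 235 of 273. S100a9 (-4.86) and S100a8 (-4.76) were thus among the lowest ratios of all, and without those cells they were -1.49 and -1.03. The lowest ratio, of the eosinophil-drawing chemokine gene Ccl24 (-5.27), came from 1 wild-type-labelled cell with 183 UMIs, all the library's members had. Terf2ip, which encodes a telomere protein, was at -3.62, with 91 of its 163 wild-type-labelled UMIs in 1 cell.

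The 5 plasma cell markers summed to 15819 CPM in deficient-labelled and 90.1 CPM in wild-type-labelled members. The antibody light chain gene Igkc was found in 86.8% of deficient-labelled and 11.7% of wild-type-labelled members, and in 78.7% and 10.7% of T cells, so that these shares lie near those of cells that do not make antibody. Its level did not: deficient-labelled members had 10081 CPM against 276 CPM in T cells, and 1 member held 16696 of the 40344 UMIs. In the wild-type-labelled library the levels were 11.1 and 32.2 CPM. The 6 deficient-labelled members with at least 10 Jchain UMIs held 6695 of 6819 Jchain UMIs, and the wild-type-labelled library had 0 such members. Of T cell receptor and CD3 markers beyond the rule, deficient-labelled members had 5.00 CPM and wild-type-labelled members 0. Members with at least 2 UMIs of other-lineage markers were 183 (39.7%) in the deficient-labelled and 39 (21.8%) in the wild-type-labelled library.

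The highest ratio of a gene named by rank was that of Lyz1 (2.72, from 181 and 13 UMIs), a near copy of Lyz2 from which reads may be assigned either way. It was followed by P2ry10 (2.26), a lysophospholipid receptor of lymphocytes, Mpp7 (2.19), the granzyme inhibitor gene Serpinb9 (2.18) and Ccl5. C1q-high cells had 704 and 101 CPM of Lyz1, 52.2 and 13.4 CPM of Mpp7 and 86.3 and 44.1 CPM of Serpinb9. The T cell gate had 52.8 and 6.04 CPM of Mpp7, 175 and 80.5 CPM of Serpinb9 and 341 and 397 CPM of P2ry10. The differences in Lyz1, Mpp7 and Serpinb9 were thus not particular to members.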

How the data were processed

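The deposited matrices hold raw UMI counts per gene and barcode for 31053 genes, with no normalization. The submitters' processing notes name STAR 2.5.1b, Cell Ranger and the build mm10, and software version 3.0.2 is given per the file headers; parameters are not given in the sources used here. Groups follow the labels. The members, the 21 gene lists, the 18 marker lists and the 1.5-fold size were chosen with earlier results of these data known. UMIs were summed over members of each library and given as CPM, ratios as log2 of CPM with exact conditional binomial intervals, and shares with exact Clopper-Pearson intervals at 95%. Each group being 1 library, no test was made, nor were cells treated as replicates. Molecules are UMIs, so the intervals cover counting error only. Total depth behind the members was 4002033 deficient-labelled and 1898541 wild-type-labelled UMIs. A gene counted as measured from 100 UMIs in the members of the libraries together. Beside fixed genes (markers, receptors and C/EBP, Klf4 and Nr4a1), those named are up to 4 per list with the largest ratios, the 10 highest and 10 lowest, the 10 furthest above C1q-high cells and the 15 most variable per library; predicted, ribosomal, mitochondrial, immunoglobulin and T cell receptor genes were left out of the ranks. Other list members, the class II limit of 50 per 10000 and genes compared across it were chosen after their values were seen. Scrublet in scanpy 1.11.5 (expected rate 5%) marked 0.0706% of kept cells and so did not work; doublets were left in, and removal by score rank (0.8% per 1000 cells) was an alternative. Of 20 alternatives, 5 were added after the data were seen. Scripts used pandas 2.3.3, scipy 1.17.1, numpy 2.4.6 and matplotlib 3.10.9 in Python 3.11.15, and were tested on simulated data. Promoter sequences are from RefSeq (GRCm38.p6); H2-Ab1 has no entry. Values of some genes that the naming rule picks are not reported here.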

Additional observations from a re-analysis of the deposited data

How the results depend on the processing

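The share of members was 7.83% in the deficient-labelled and 6.86% in the wild-type-labelled library. With Ly6c2 at least 2 the rule took in 92 and 24 further cells, and the deficient-labelled share was 9.39%. The shares were 5.82% and 5.75% with Ly6c2 at least 5, and 8.99% and 8.90% with the rule applied to cells thinned to 2000 UMIs. Without members carrying other-lineage markers they were 4.72% and 5.36%, the deficient-labelled share being the lower. Of the 469 deficient-labelled and 177 wild-type-labelled cells chosen after thinning, 381 and 147 were also members. The counts of 345 higher and 275 lower genes became 124 and 119 with a minimum of 300 UMIs, 1871 and 3874 with none, 78 and 46 at 2-fold, and 138 and 101 with each member thinned to 2000 UMIs. Ccl24 turned to 0.087 with Ly6c2 at least 5 and to 0.58 without other-lineage members. Apol7c (-1.58) turned to 1.19 with thinned cells in the rule, 3.37 without cells of high doublet rank, 0.68 without other-lineage, 1.91 without dendritic-marked members, 1.41 under 50 class II UMIs per 10000 and 0.43 in thinned members. Cxcl3 was -0.26 with thinned cells in the rule, Retnlg (-2.97) was 2.61 without neutrophil-marked members, and Mrc1 was -0.37 in thinned members. The cause of these was not tested. The class II list, whose median alone was past 1.5-fold, kept its sign, and the butyrate response median (-0.35) was 0.80 in thinned members. The class II median ran from 1.07 to 1.85, H2-Ab1 from 1.15 to 2.09 and Ccr2 from -1.0 to -0.70. The settings without neutrophil-, dendritic- or plasma-marked members, under 50 class II UMIs and with thinned members were chosen after seeing the data. No paired analysis was possible because each group is 1 library.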
